A study of Rattus norvegicus with 10 samples.

Results

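The 10 genes described here mark the contractile and perivascular cells of the kidney: Acta2, Myh11, Tagln, Cnn1 and Des of the smooth muscle cytoskeleton, the growth factor receptor genes Pdgfra and Pdgfrb, and Rgs5, Gata3 and Mcam. They were picked by symbol from a table of 32545 genes, and all 10 were found. The table holds FPKM values (fragments per kilobase of gene, scaled to the fragments of the library) from 10 RNA sequencing libraries of left kidney cortex. The rats were males of the Dahl salt-sensitive background, an inbred line prone to salt-induced hypertension, aged 11 to 12 weeks, whose kidneys had been flushed with buffered saline. The Kcnj16_m1 group (n = 5) is mutant for Kcnj16, whose product forms potassium channels in kidney tubule cells, and the series title calls these animals knockouts. The SS_WT group (n = 5) is wild type on the same background. The labels do not describe the change in the allele, and they do not state that each library is another animal. The p-values therefore cover only how these libraries scatter, and part of that scatter may be technical.

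Mural cells wrap the walls of blood vessels. Smooth muscle cells surround arteries and arterioles and contract through actin and smooth muscle myosin, pericytes sit on capillaries, and mesangial cells hold the capillary loops of the glomerulus together. Endothelial cells secrete PDGF-B, which recruits mural cells through the receptor PDGFRβ, while PDGFRα is carried mainly by fibroblasts of the interstitium. Serum response factor (SRF) with its partner myocardin drives the contractile genes by binding a DNA element called the CArG box. When such cells are activated in an injured kidney they can become matrix-producing myofibroblasts.

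Whole reads recovered from the FPKM, summed over the listed genes, ran from 16361516 to 23385968 in Kcnj16_m1 libraries. In SS_WT libraries they ran from 16541364 to 16863579. Kcnj16 itself stood at 326 ± 13.3 FPKM in Kcnj16_m1 libraries and 347 ± 21.6 FPKM in SS_WT libraries (SD, n = 5 each, exact two-sided permutation p = 0.127), so its transcript level cannot check the genotype labels. Proximal tubule genes summed to between 3976 and 4408 FPKM in Kcnj16_m1 libraries and between 2993 and 3732 FPKM in SS_WT libraries. The largest part of that gap was Slc34a1, which averaged 1905 FPKM in Kcnj16_m1 and 1441 FPKM in SS_WT. Of these 8 genes, 3 were higher, 0 lower and 5 did not pass the test given below, where 14.6% of all genes were higher. In contrast, 4 genes of the inner medulla and urothelium summed to at most 2.56 and 2.48 FPKM. All 10 smooth muscle and pericyte genes were above 0 in every library. Markers of striated muscle, which shares Des and much of the contractile machinery, summed to at most 4.35 FPKM in Kcnj16_m1 and 4.73 FPKM in SS_WT over 10 genes. Myocd, which encodes myocardin, was close to 0, at 0.0691 ± 0.0240 and 0.0426 ± 0.0348 FPKM, and the pericyte gene Tbx18 was listed at 0 throughout.

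Of the 10 genes, 3 rose in the mutants, 1 fell and 6 did not pass the test (limma on log2(FPKM + 0.5), Benjamini-Hochberg adjusted p under 0.05 over 13971 genes). Pdgfrb rose by 0.38 on the log2 scale, Mcam by 0.32 and Gata3 by 0.29, and Cnn1 fell by 0.52. These 4 calls make 40%, against 28.5% of all genes tested, of which 14.6% were higher and 14.0% lower. Only Gata3 had groups that did not overlap, in the higher direction, as did 9.88% of all genes tested, and no member did so in the lower direction, as did 9.34%. The median log2 fold change of the 10 genes was 0.08 and that of all genes 0.01. Changes were small: the log2 fold changes lay between -0.52 and 0.38. In whole cortex, fewer cells of a type and less RNA per cell cannot be told apart.

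**Figure D1:**
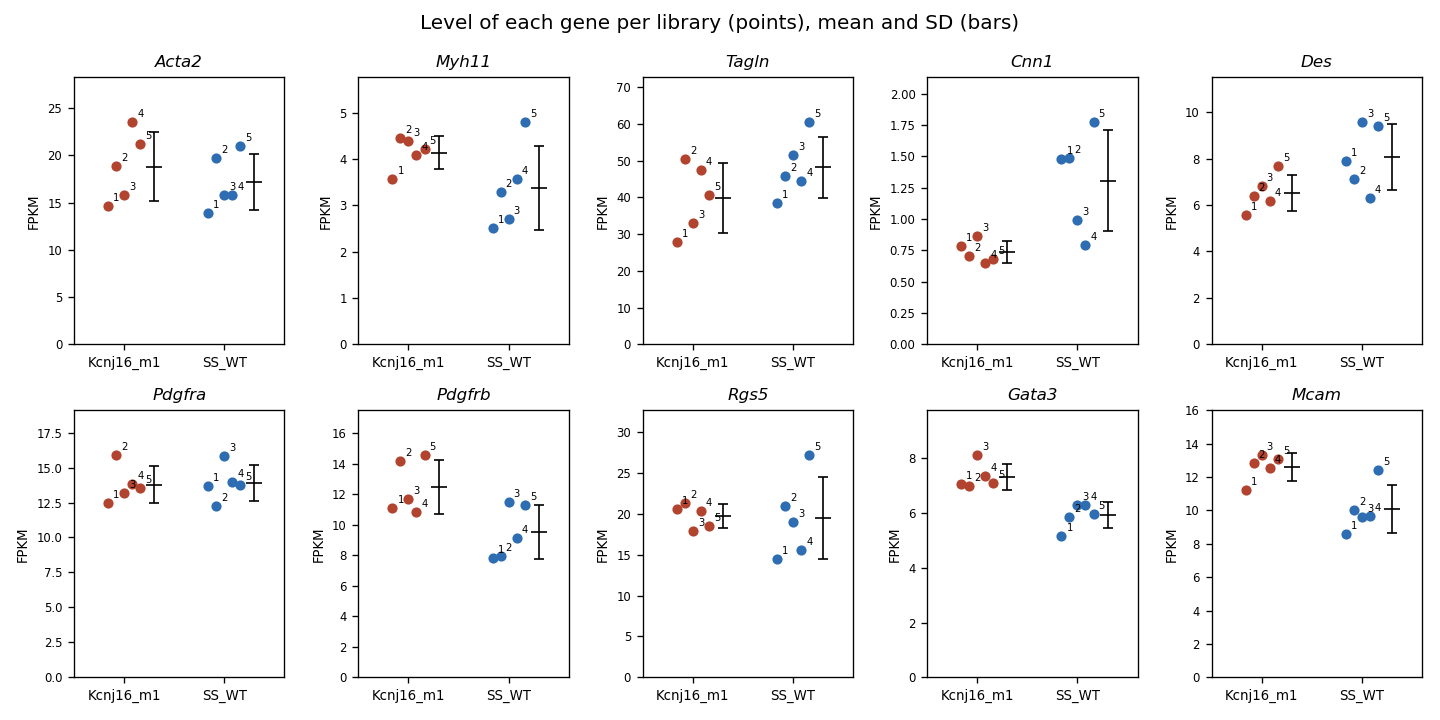
FPKM of each of the 10 genes by library, with the replicate number beside each point, Kcnj16_m1 in red and SS_WT in blue, and the mean with its SD as a bar. The groups separate completely only for Gata3, and the SS_WT points are spread over a wide range for Rgs5, Myh11 and Cnn1.

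Tagln was the most abundant of the genes, with a mean of 44.1 FPKM over the 10 libraries, above 87.2% of the genes tested. Rgs5 followed at 19.6 FPKM and Acta2 at 18.0 FPKM, and these neighbours changed places in 3 libraries. Pdgfra averaged 13.8 FPKM, Mcam 11.3 FPKM and Pdgfrb 11.0 FPKM, with Mcam above Pdgfrb in 7 of 10 libraries. Des at 7.30 FPKM and Gata3 at 6.62 FPKM could not be ordered, as each was the higher in 5 libraries. Myh11 at 3.76 FPKM and Cnn1 at 1.02 FPKM came last in every library. FPKM is a level per length of gene, so these levels can be set beside each other.

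Acta2 encodes smooth muscle α-actin, the marker most used for smooth muscle and myofibroblasts. It lies on chromosome 1, 252537615 to 252550394, minus strand, as the deposited table gives it. The sources used here name no genome build for these coordinates. Its stretch before the transcription start is shown with those of Cnn1 and Des, contractile genes made in the same cells. Cnn1 fell and Acta2 and Des did not pass the test, but no test compared their changes. Des also had a log2 fold change below 0, at -0.28. The sequences are from RefSeq on assembly GRCr8, 250 bases each, 5′ to 3′ on the strand of the gene, and 6 of the 10 genes had one. Capitals mark 3 motifs searched on both strands: the CArG box with at most 1 base off in its A/T core, CATTCC, which is bound by TEAD factors, and CAGCTG, an E-box, which is its own reverse complement.
Acta2, chr1:241172504-241172753, minus strand: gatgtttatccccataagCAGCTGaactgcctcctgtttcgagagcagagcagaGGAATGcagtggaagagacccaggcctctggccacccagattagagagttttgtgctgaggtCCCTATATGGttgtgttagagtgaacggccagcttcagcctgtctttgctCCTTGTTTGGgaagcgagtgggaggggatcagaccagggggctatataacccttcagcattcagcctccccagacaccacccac
Cnn1, chr8:28908187-28908436, plus strand: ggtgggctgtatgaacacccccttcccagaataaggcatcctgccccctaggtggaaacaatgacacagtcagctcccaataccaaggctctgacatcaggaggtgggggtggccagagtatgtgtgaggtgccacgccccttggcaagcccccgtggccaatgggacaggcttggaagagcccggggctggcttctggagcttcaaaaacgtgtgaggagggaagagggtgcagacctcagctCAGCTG
Des, chr9:84299376-84299625, plus strand: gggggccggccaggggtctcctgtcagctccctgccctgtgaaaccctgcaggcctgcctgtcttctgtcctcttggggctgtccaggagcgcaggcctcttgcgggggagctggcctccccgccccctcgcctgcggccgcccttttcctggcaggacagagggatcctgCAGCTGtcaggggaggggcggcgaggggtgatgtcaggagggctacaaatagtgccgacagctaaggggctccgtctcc
The Acta2 stretch held 2 CArG-type matches, CCCTATATGG from 134 to 125 bases before the start and CCTTGTTTGG from 84 to 75 bases before it, and 1 match to CATTCC, read there as GGAATG. Each of the 3 stretches held CAGCTG once, that of Cnn1 ending right at the start. None of the 3 held a CArG box without a base off. Of 33469 promoter stretches of the same length, 1.5% held an exact CArG box, 8.08% a CArG-type match, 12.1% CATTCC and 12.0% CAGCTG. A match here is a string of letters and was not tested for binding.

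Acta2 stood at 14.7, 18.9, 15.8, 23.6 and 21.2 FPKM in Kcnj16_m1 replicates 1 to 5, and at 13.9, 19.7, 15.8, 15.8 and 20.9 FPKM in SS_WT replicates 1 to 5. The 2 highest values were mutant and the groups overlapped over most of their range. This gave a log2 fold change of 0.12, 95% interval -0.20 to 0.44 (limma adjusted p = 0.572). Actg2, the actin gene of visceral smooth muscle, is nearly the same in its coding sequence, so reads could be shared. It averaged 0.0454 ± 0.0396 FPKM in Kcnj16_m1 and 0.324 ± 0.272 FPKM in SS_WT. Actg2 was chosen after its values were seen and lay under the level needed for the test.

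Myh11 (chromosome 10, 764421 to 859184, plus strand) encodes the smooth muscle myosin heavy chain, the motor that pulls on that actin. It stood at 3.57, 4.45, 4.39, 4.08 and 4.23 FPKM in Kcnj16_m1 libraries and at 2.52, 3.28, 2.72, 3.58 and 4.81 FPKM in SS_WT libraries. SS_WT replicate 5 exceeded every mutant, SS_WT replicate 4 lay just above the lowest mutant, and the other 3 SS_WT values were below all mutants. Its log2 fold change of 0.28 did not pass (limma adjusted p = 0.148), but without SS_WT replicate 5 it was 0.40 and passed (adjusted p = 0.0224).

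Tagln (chromosome 8, 50222896 to 50231357, minus strand) encodes transgelin, an actin cross-linking protein of smooth muscle. Its values were 27.8, 50.3, 33.0, 47.6 and 40.7 FPKM in Kcnj16_m1 and 38.5, 46.0, 51.6, 44.5 and 60.6 FPKM in SS_WT. Mutant replicates 1 and 3 were below all SS_WT libraries and the other 3 were among them. A log2 fold change of -0.29 did not pass (limma adjusted p = 0.220). The annotation of Tagln overlaps that of Sidt2 on the same strand, which leaves its value uncertain.

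Cnn1 (chromosome 8, 23113048 to 23121761, plus strand) encodes calponin, which restrains the actin-activated ATPase of myosin, and it was the only member to fall. It stood at 0.782, 0.707, 0.862, 0.646 and 0.681 FPKM in Kcnj16_m1 and at 1.48, 1.49, 0.988, 0.789 and 1.78 FPKM in SS_WT. Of the 5 mutant values, 4 lay below all SS_WT values, and SS_WT replicate 4 was inside the mutant range. In log2 units the change was -0.52, SE 0.16 (limma adjusted p = 0.0293). The depth was low, with 27, 18, 25, 20 and 17 reads in the mutants and 37, 37, 27, 20 and 46 reads in wild type. These read counts are not scaled to the depth of each library. The call was lost when any 1 of mutant replicates 1, 2, 4 and 5 or SS_WT replicates 1, 2 and 5 was left out (adjusted p from 0.0507 to 0.0694). It was also lost with quantile normalization (adjusted p = 0.0638) and without SS_WT replicates 1 and 2 together (adjusted p = 0.132). On reads recovered from the FPKM, limma's weighted fit gave a log2 fold change of -0.79 (adjusted p = 0.0284).

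Des (chromosome 9, 82556573 to 82564294, plus strand) encodes desmin, the intermediate filament of muscle, which in rat kidney also appears in mesangial cells and injured podocytes. Its levels were 5.59, 6.39, 6.82, 6.17 and 7.68 FPKM in Kcnj16_m1 and 7.90, 7.14, 9.59, 6.29 and 9.42 FPKM in SS_WT. Mutant replicates 1 and 4 were below all SS_WT values and the groups overlapped. With a log2 fold change of -0.28 it did not pass (limma adjusted p = 0.104). Without SS_WT replicate 4 it was -0.36 and passed (adjusted p = 0.0331). Over the 5 contractile genes the median log2 fold change was -0.28, with Myh11 and Acta2 above 0 and the other 3 below.

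**Figure D2:**
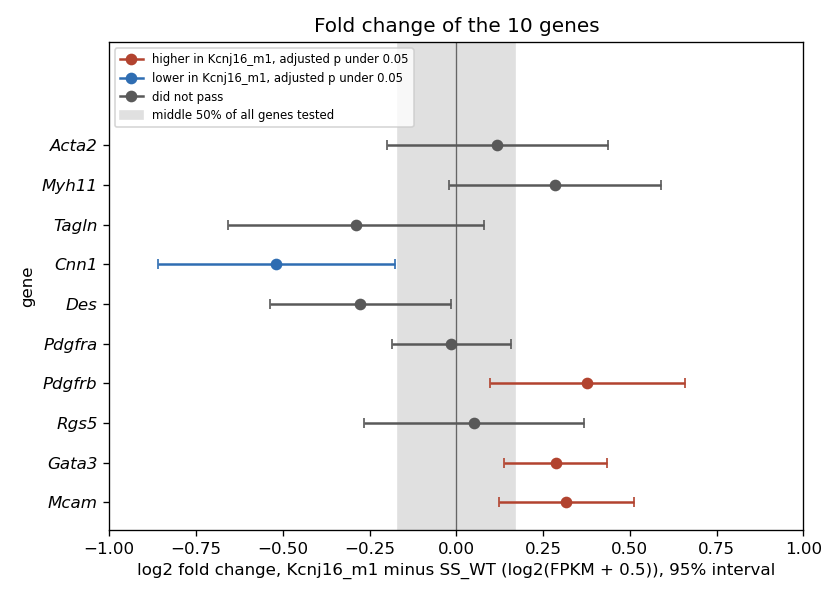
Log2 fold change of each gene, Kcnj16_m1 minus SS_WT, with its 95% interval, over a grey band that holds the middle 50% of all genes tested (-0.17 to 0.17). The points of Pdgfrb, Mcam and Gata3 lie right of the band at 0.38, 0.32 and 0.29, and that of Cnn1 left of it at -0.52; of the genes that did not pass, Myh11 at 0.28 also lies right of the band, and Tagln at -0.29 and Des at -0.28 left of it.

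Pdgfrb (chromosome 18, 56364620 to 56406381, plus strand), the receptor gene of pericytes, mesangial cells and smooth muscle, rose. It stood at 11.1, 14.1, 11.7, 10.8 and 14.6 FPKM in Kcnj16_m1 and at 7.80, 7.95, 11.5, 9.13 and 11.3 FPKM in SS_WT. Of the mutant values, 3 were above all SS_WT values, and SS_WT replicates 3 and 5 reached the range of the mutants. The log2 fold change was 0.38, SE 0.13 (limma adjusted p = 0.0470). This call lay at the threshold: it was lost under 13 of 21 alternatives, among them leaving out any 1 of mutant replicates 1, 2, 3 and 5 or SS_WT replicates 1, 2 and 4. Without SS_WT replicates 1 and 2, whose labels have the lowest numbers, the log2 fold change was 0.22 (adjusted p = 0.218).

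Pdgfra (chromosome 14, 35527927 to 35581031, minus strand), the receptor gene of fibroblasts, stood at 12.5, 15.9, 13.2, 13.8 and 13.5 FPKM in Kcnj16_m1 and at 13.7, 12.3, 15.8, 14.0 and 13.7 FPKM in SS_WT. The ranges of the groups were nearly the same. It differed by -0.01 in log2 units, 95% interval -0.19 to 0.16 (limma adjusted p = 0.912). The table also lists AABR07014881.1 within its bounds, on the same strand.

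The balance of the receptor genes was compared within each library. The log2 ratio of Pdgfra to Pdgfrb was 0.16, 0.17, 0.16, 0.34 and -0.10 in Kcnj16_m1 and 0.78, 0.60, 0.45, 0.59 and 0.27 in SS_WT. Mutant ratios were the lower ones, with a single crossing: mutant replicate 4 lay above SS_WT replicate 5. The mean was 0.14 ± 0.16 in Kcnj16_m1 and 0.54 ± 0.19 in SS_WT (SD, n = 5 each), a difference of -0.39 (exact two-sided permutation p = 0.0159, 0.0317 adjusted over the 2 ratios tested). As the log2 fold change was -0.01 for Pdgfra and 0.38 for Pdgfrb, this difference rests on the Pdgfrb values given above. It is not a separate result. The difference stayed between -0.46 and -0.29 in 13 alternatives. Adjusted over both ratios it did not pass without Kcnj16_m1 replicate 5 (exact permutation, adjusted p = 0.0635) or without SS_WT replicates 1 and 2 together (adjusted p = 0.0714). The log2 ratio of Acta2 to Pdgfrb averaged 0.56 ± 0.30 in Kcnj16_m1 and 0.82 ± 0.29 in SS_WT, a difference of -0.26 that did not pass (exact permutation p = 0.175).

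**Figure D3:**
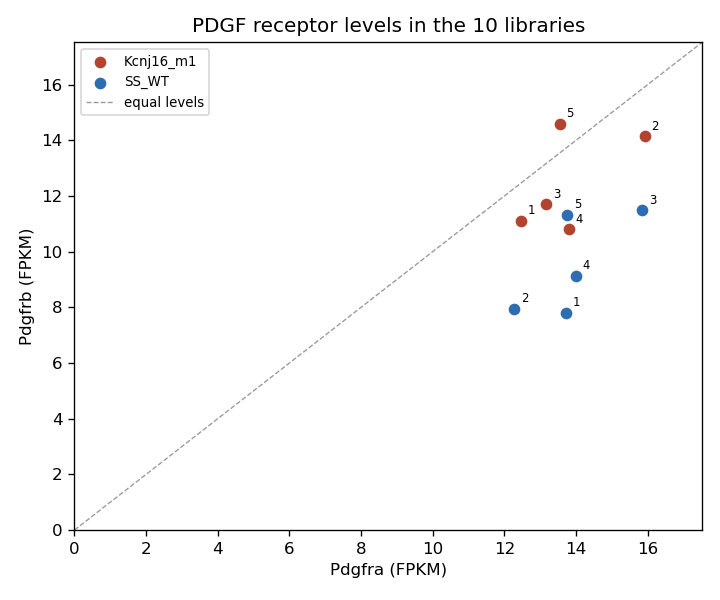
Level of Pdgfrb against that of Pdgfra in each library, in FPKM, with replicate numbers and a dashed line where both are equal. At like Pdgfra levels the Kcnj16_m1 points lie nearer to the line, except replicate 4, which lies just below SS_WT replicate 5, and mutant replicate 5 lies above the line.

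Among the ligands, Pdgfd fell, at 0.650 ± 0.123 FPKM in Kcnj16_m1 and 1.18 ± 0.212 FPKM in SS_WT (log2 fold change -0.55, limma adjusted p = 0.00838), though its annotation overlaps that of Ddi1. Pdgfb, the endothelial ligand of PDGFRβ, stood at 12.6 ± 1.66 FPKM in Kcnj16_m1 and 16.2 ± 4.26 FPKM in SS_WT (adjusted p = 0.188). Pdgfa and Pdgfc did not pass either (adjusted p = 0.340 and 0.0662). These 3 ligand genes are given to complete the family, with their values known. Of the signalling genes below the receptors, the adaptor genes Shc1 and Grb2 and the PI3-kinase subunit gene Pik3r1 fell by 0.24, 0.27 and 0.55 on the log2 scale. The kinase gene Src rose by 0.18. In all, 1 of the 20 ligand and signalling genes was higher, 4 were lower and 15 did not pass, with a median log2 fold change of -0.09. These 5 calls in 20 do not exceed the 28.5% called among all genes tested.

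Gata3 (chromosome 17, 72429618 to 72450681, plus strand) encodes a transcription factor of mesangial cells that is also made in collecting duct and in T cells. It was the member whose rise was most uniform, at 7.06, 6.99, 8.13, 7.37 and 7.08 FPKM in Kcnj16_m1 and 5.17, 5.86, 6.31, 6.29 and 5.98 FPKM in SS_WT. All mutant values lay above all SS_WT values. Its log2 fold change was 0.29, SE 0.07 (limma adjusted p = 0.0101), and it passed in all 21 alternatives (adjusted p from 0.00677 to 0.0362).

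Genes of the other cells that make Gata3 moved as well. Of 14 collecting duct and distal nephron genes, 7 were higher in the mutants, 1 lower and 6 did not pass, with a median log2 fold change of 0.40. Among all genes tested 14.6% were higher and 14.0% lower. Gata2 rose by 0.65, the vasopressin receptor gene Avpr2 by 0.71, Fxyd4 by 0.89 and the water channel gene Aqp3 by 0.44 on the log2 scale. The calcium-binding protein gene Calb1, the 1 gene of the list to fall and named once its values were known, fell by 1.25. The summed level of these 14 genes ran from 452 to 586 FPKM in Kcnj16_m1 and from 371 to 636 FPKM in SS_WT. T cell genes summed to between 14.1 and 18.1 FPKM in Kcnj16_m1 and between 24.4 and 38.5 FPKM in SS_WT, with 8 of 9 lower, opposite to Gata3. Most of that sum was Cd4, at 11.5 FPKM in Kcnj16_m1 and 16.8 FPKM in SS_WT on average. Cd3d, Cd3e and Cd2 had mutant means under the 0.5 FPKM needed for the test and all SS_WT values above it. They were thus tested through the group where they were higher. The part of these cells in the level of Gata3 was not tested.

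Mcam (chromosome 8, 48472824 to 48481001, plus strand) encodes CD146, an adhesion molecule of smooth muscle, pericytes and endothelium. It stood at 11.2, 12.8, 13.3, 12.6 and 13.1 FPKM in Kcnj16_m1 and at 8.61, 10.04, 9.59, 9.67 and 12.45 FPKM in SS_WT. Of the mutant values, 4 exceeded all SS_WT values, and mutant replicate 1 lay below SS_WT replicate 5 only. Its rise in log2 units was 0.32, SE 0.09 (limma adjusted p = 0.0217). Without mutant replicate 3 the adjusted p was 0.0523, and without SS_WT replicates 1 and 2 it was 0.0828.

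Endothelial markers rose with Mcam: 8 of 13 tested were higher, none was lower and 5 did not pass (median log2 fold change 0.33). Among all genes tested 14.6% were higher and 14.0% lower. Their summed level ran from 241 to 260 FPKM in Kcnj16_m1 and from 179 to 217 FPKM in SS_WT, without overlap. Kdr and Flt1, the receptor genes for vascular endothelial growth factor, rose by 0.66 and 0.52 on the log2 scale, the glomerular endothelial gene Ehd3 by 0.78 and Plvap by 0.36. Podocyte genes, which share the glomerulus with mesangial cells, were higher for 7 of 10, with 0 lower (median 0.47), among them Ptpro, Nphs1, Wt1 and Podxl at 0.60, 0.59, 0.70 and 0.52. Their sums ran from 154 to 178 FPKM in Kcnj16_m1 and from 125 to 141 FPKM in SS_WT. Whether these cells contributed to the rise of Mcam, Gata3 or Pdgfrb was not tested.

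Rgs5 (chromosome 13, 87966758 to 88003035, plus strand), a pericyte marker that encodes an inhibitor of G protein signalling, did not change detectably. Its values were 20.6, 21.4, 17.9, 20.4 and 18.6 FPKM in Kcnj16_m1 and 14.5, 21.0, 19.1, 15.6 and 27.3 FPKM in SS_WT. The mutants lay wholly inside the SS_WT range, and the SD was 1.47 FPKM in Kcnj16_m1 and 5.05 FPKM in SS_WT. In log2 units the difference was 0.05, 95% interval -0.27 to 0.37 (limma adjusted p = 0.822).

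In SS_WT replicate 5, 9 of the 10 genes were above their group mean, by a median of 0.30 on the log2 scale, and the exception was Pdgfra. In SS_WT replicate 1, 9 of 10 were below it, by a median of 0.23, and the exception was Cnn1. In SS_WT replicates 2, 3 and 4 the genes were split, with 4, 6 and 3 of 10 above the group mean. In Kcnj16_m1 replicate 1, 8 of 10 genes were below the mean of their group, with a median deviation of -0.15. Over all genes tested, between 48.7% and 53.6% were above the group mean in each library. No test was made of these deviations. Replicate 5 held the highest SS_WT value for 6 genes, among them Acta2, Myh11, Tagln and Rgs5. The coefficient of variation was larger in SS_WT than in Kcnj16_m1 for 7 of the 10 genes, and for 69.7% of all genes tested.

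**Figure D4:**
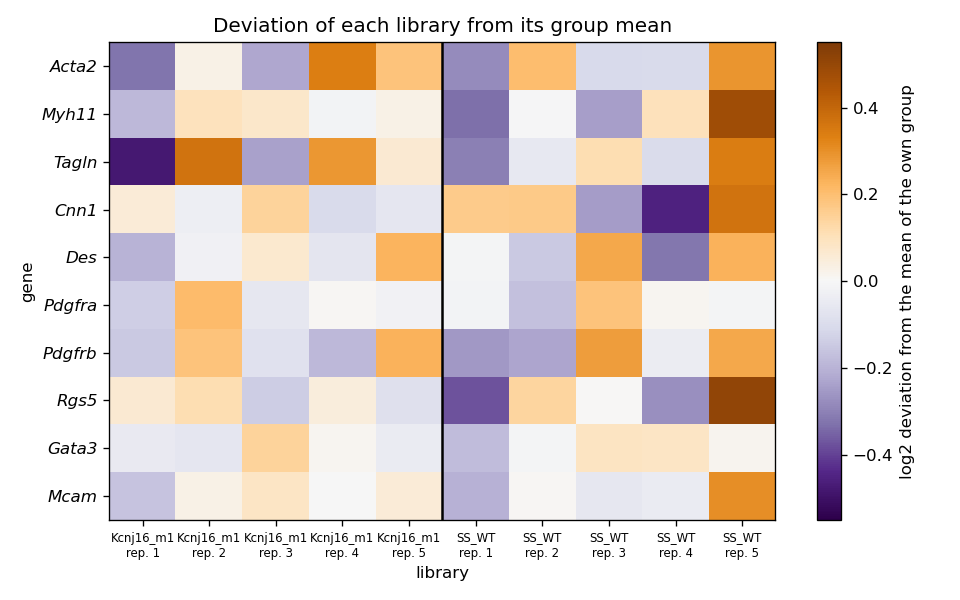
Deviation of each library from the mean of its own group, in log2 units, for each gene (rows) and library (columns, Kcnj16_m1 left of the line and SS_WT right of it). SS_WT replicate 5 is high and SS_WT replicate 1 low for 9 of the 10 genes, and Kcnj16_m1 replicate 1 is low for 8.

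Other parts of the contractile apparatus went both ways. Of 30 genes listed 25 were tested. In the mutants 4 were higher, 7 lower and 14 not past the threshold, with a median log2 fold change of 0.01. The share called was 11 in 25, where 28.5% of all genes tested were called, 14.6% higher and 14.0% lower. The laminin receptor subunit gene Itga7 rose, at 5.92 ± 0.366 FPKM in Kcnj16_m1 and 3.93 ± 0.554 FPKM in SS_WT (log2 fold change 0.54, limma adjusted p = 0.00149), and overlaps Mettl7b. Ppp1r14a, which encodes an inhibitor of myosin phosphatase, rose by 0.40, smoothelin (Smtn), a marker of contractile smooth muscle, by 0.27 and the actinin gene Actn4, prominent in podocytes, by 0.20 on the log2 scale. The tropomyosin gene Tpm1 fell, at 33.2 ± 2.44 FPKM in Kcnj16_m1 and 52.0 ± 9.85 FPKM in SS_WT (log2 fold change -0.62, adjusted p = 0.00322). Cald1, which encodes caldesmon, fell by 0.56, Pdlim7 by 0.56, Actn1 by 0.51, the calponin family gene Cnn2 by 0.50 and filamin A (Flna) by 0.36. Tpm1, Actn1, Cnn2 and Flna are also made by many cells other than muscle. The myosin light chain gene Myl9 and its kinase gene Mylk, both picked once their values were known, did not pass, with 0.10 and 0.06 in log2 units (adjusted p = 0.629 and 0.429).

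The SRF-myocardin and transforming growth factor β list, which controls such genes, had 3 of 22 tested members lower, 0 higher and 19 not past the threshold (median log2 fold change 0.01), a share called of 3 in 22 where 28.5% of all genes tested were called and 14.0% were lower. Tgfb1, which encodes a growth factor that drives myofibroblast conversion, fell, at 10.8 ± 1.19 FPKM in Kcnj16_m1 and 16.1 ± 3.58 FPKM in SS_WT (log2 fold change -0.53, limma adjusted p = 0.0201). Its receptor gene Tgfbr1 fell by 0.21 and Klf4, a repressor of the contractile genes, by 0.40. Klf5 did not pass (adjusted p = 0.0632), nor did Srf, chosen after its values were seen, at 14.2 ± 1.52 FPKM in Kcnj16_m1 and 12.7 ± 1.87 FPKM in SS_WT (adjusted p = 0.265).

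Of 20 other pericyte and mural genes tested, 8 rose, 3 fell and 9 did not pass, with a median log2 fold change of 0.24. The share called was 11 in 20, where 28.5% of all genes tested were called, 14.6% higher and 14.0% lower. Abcc9 and Kcnj8, whose products form the ATP-sensitive potassium channel of mural cells, rose to 6.58 ± 0.730 FPKM, against 4.24 ± 0.995 FPKM in SS_WT, and to 5.07 ± 0.579 FPKM, against 3.20 ± 0.984 FPKM in SS_WT. Their log2 fold changes were 0.60 and 0.62 (limma adjusted p = 0.00795 and 0.0155). Notch3, the receptor gene needed by arterial smooth muscle, rose by 0.44, and the potassium channel gene Kcnk3 by 0.97. Kcnk3 ran from 0.722 to 1.18 FPKM in Kcnj16_m1 and reached at most 0.460 FPKM in SS_WT. Only mutant libraries met the 0.5 FPKM needed, so Kcnk3 was tested only through the group where it was higher. The G protein signalling inhibitor gene Rgs4 rose by 0.59, the endothelin receptor gene Ednrb by 0.43, Gpr4 by 0.38 and Tbx2 by 0.30. Angpt1, a ligand from mural cells for the endothelial receptor TIE2, fell by 0.40, Heyl, a target of Notch signalling, by 0.30 and Anpep by 0.35. Anpep is abundant on proximal tubule cells, and Ednrb, Gpr4 and Tbx2 are also made by endothelium or tubule. Cspg4, which encodes the pericyte proteoglycan NG2 and was chosen after its values were seen, stood at 0.725 ± 0.0473 FPKM in Kcnj16_m1 and 0.548 ± 0.0935 FPKM in SS_WT and did not pass (adjusted p = 0.123), although its groups did not overlap.

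Of 13 mesangial and juxtaglomerular genes, 3 rose, 1 fell and 9 did not pass (median log2 fold change 0.19). The share called was 4 in 13, where 28.5% of all genes tested were called, 14.6% higher and 14.0% lower. Gja5, which encodes the gap junction protein connexin 40, stood at 3.72 ± 0.435 FPKM in Kcnj16_m1 and 1.84 ± 0.345 FPKM in SS_WT (log2 fold change 0.86, limma adjusted p = 0.000658). Which cells carried the rise of Gja5 was not tested. Hopx rose by 0.66 and Igfbp5 fell by 0.36 on the log2 scale. In the fibroblast list, 4 of 18 tested genes were higher, 5 lower and 9 not past the threshold, with a median log2 fold change of -0.23. The matrix genes Dcn, Col1a1 and Col3a1 fell by 1.12, 1.12 and 0.84, whereas Meis2 rose by 0.34. The other calls, named once their values were known, were falls of Dpt and Fbn1 by 0.52 and 0.47. Gsn, Tcf21 and Meis1 rose by 0.39, 0.40 and 0.35. Several matrix genes did not pass, among them Col1a2 at -0.05 and Col6a1 at -0.38 (limma adjusted p = 0.871 and 0.0807). The fibroblast receptor gene Pdgfra, as given above, had a log2 fold change of -0.01. The summed fibroblast level ran from 226 to 279 FPKM in Kcnj16_m1 and from 291 to 459 FPKM in SS_WT, and Dcn, at 52.4 FPKM in Kcnj16_m1 and 119 FPKM in SS_WT on average, was the largest part of that gap. Markers of tubular injury were lower for 8 of 9 tested, with sums from 274 to 351 FPKM in Kcnj16_m1 and from 638 to 3270 FPKM in SS_WT. Most of the SS_WT sum was Spp1, which encodes osteopontin and averaged 111 FPKM in Kcnj16_m1 and 1407 FPKM in SS_WT. Macrophage genes were lower for 8 of 10, with sums from 103 to 135 FPKM in Kcnj16_m1 and from 156 to 246 FPKM in SS_WT. Of all genes tested, 14.0% were lower. The part of these cells in the falls of Tpm1, Cald1, Tgfb1 and Cnn1 was not tested.

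Several calls in these lists lay near the threshold. Those of Smtn, Tbx2, Gpr4 and Anpep were lost under 12, 13, 12 and 12 of 21 alternatives, those of Igfbp5, Heyl, Grb2 and Src under 11, 10, 10 and 10, and those of Flna and Tgfbr1 under 9 each. In contrast, Klf4 lost its call under 4, Ppp1r14a under 3, Pik3r1 under 2 and Kcnj8, Shc1 and Calb1 under 1 each. Without SS_WT replicate 4, Pdgfb, Pdgfc and Klf5 passed (adjusted p = 0.0183, 0.0432 and 0.00787). With variances not trended on level Klf5 and Cspg4 passed (adjusted p = 0.0489 and 0.0309), and Cspg4 also did with quantile normalization and in the weighted fit on recovered reads (adjusted p = 0.0335 and 0.0432). The counts moved with them. Of the pericyte and mural genes, 11 were past the threshold as reported. The number was 6 without Kcnj16_m1 replicate 1 or 3 or without SS_WT replicates 1 and 2 together. It was 7 without Kcnj16_m1 replicate 2 or 5, without SS_WT replicate 2 or with no filter on low values. Kcnk3 could not be tested when a mutant library was left out, so those counts do not include it. In the PDGF signalling list, 5 passed as reported, 2 without SS_WT replicate 2 (also when replicate 1 was left out with it), 3 without Kcnj16_m1 replicate 3 or SS_WT replicate 5, 3 with no filter, with variances not trended on level or with TPM, and 8 without SS_WT replicate 4. In the SRF-myocardin list, 3 passed as reported, 1 without Kcnj16_m1 replicate 4 or 5 or SS_WT replicate 2 or 3, and 6 without SS_WT replicate 4. The fibroblast count was 9 as reported and 5 without Kcnj16_m1 replicate 1 or 3. The T cell count was 8 as reported and 4 without SS_WT replicates 1 and 2. With a filter of 1 FPKM it was 5, because Cd3d, Cd3e and Cd2 could no longer be tested.

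**Figure D5:**
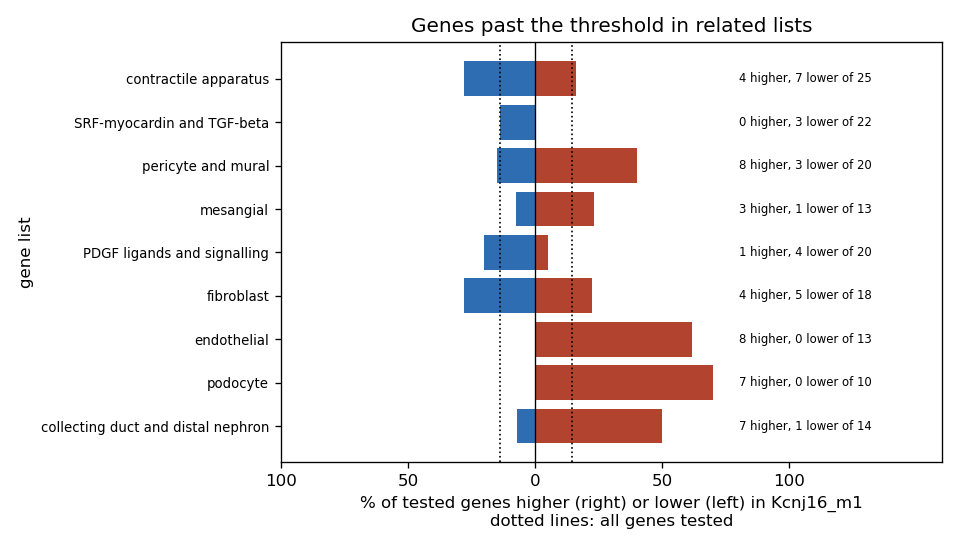
Percent of the tested genes of each list that were higher (red, right) or lower (blue, left) in Kcnj16_m1, with the counts at the right and dotted lines at the shares among all genes tested (14.6% higher and 14.0% lower). In the endothelial and podocyte lists 8 of 13 and 7 of 10 were higher, and in the pericyte and mural list 8 of 20.

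The genes whose pattern over the 10 libraries was most like that of each member were found by the root mean square difference of log2(FPKM + 0.5), each gene centred on its own mean, among genes of at least 1 FPKM on average. Nearest to Myh11 was another member, Mcam, at 0.11 log2 units, while Myh11 itself varied by 0.26 about its mean. Next came Kif26a and the mesangial integrin gene Itga8, at 0.12 and 0.14. For Gata3 these were Ern1, Sun1 and Car8, at 0.06, 0.07 and 0.07, against 0.17 for its own variation. Pdgfrb had Dkk2 nearest, at 0.12 against 0.28. For Mcam the nearest were Pced1a, Meis2 and Stard13, all at 0.09 against 0.21. Cnn1 was nearest to Lrrc8e at 0.13, Acta2 to Pianp at 0.15, Tagln to Phospho1 at 0.14, Des to Npdc1 at 0.09, Pdgfra to Zfp746 at 0.05 and Rgs5 to Eif4e3 at 0.12. The likeness includes the difference between the groups and is a description over these 10 libraries.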

How the data were processed

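Polyadenylated RNA of 10 libraries was analysed. The deposited table holds the authors' FPKM beside each gene's symbol, position and length. The submitters' processing notes name featureCounts 1.5.0-p3, StringTie 1.3.3b, HISAT2 2.0.5 and fastp, without their roles. No genome build is given in the sources used here, and the labels' protocols describe both strand-specific and other libraries, so overlapping genes are uncertain. Of the changed genes named from other lists, Itga7, Pdgfd, Notch3, Cnn2, Actn1, Actn4, Pdlim7 and Col3a1 overlap another annotated gene. Columns were matched to samples by the identifier in each title and grouped by genotype label; replicate numbers only name libraries. FPKM times gene length gave whole reads for 100% of values within 0.05 reads.

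A gene was tested when 5 or more libraries reached 0.5 FPKM (13971 genes, all 10 members among them). The test was limma 3.58.1 (R 4.3.3), applied to log2(FPKM + 0.5), which understates changes of low genes, with a group term and trended moderated variances. P-values are two-sided, with Benjamini-Hochberg adjustment, and the threshold is 0.05. Fold changes are Kcnj16_m1 minus SS_WT, ± is the SD over 5 libraries and intervals are 95%. Within-library ratios were tested by exact permutation, whose smallest p is 0.00794. The fit was checked on simulated data. The members and lists were chosen with earlier results of these data known; lists are described by counts without a test. In other lists, genes past the threshold, or up to 4 with the smallest adjusted p, were named by rule; a few results are not reported here. Older symbols matched 3 listed genes, and 7 listed genes were not analysed here. Smtn, Grb2, Tgfbr1, Aspn and Slc14a2 had 2 entries each. For these the entry with the higher mean was used, and the other entry is not described. The alternatives changed the pseudocount, filter, variance model, scaling, libraries and test.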

Additional observations from a re-analysis of the deposited data

Results flagged for a closer look

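A library was marked where its distance to the nearest other library of its group exceeded 0.71 of the range of that group of 5. Among 142 groups of 5 values examined, 7 held such a library, and chance alone marks about 1 group in 20. None of the 20 groups of the smooth muscle and pericyte genes themselves was marked.

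The log2 ratio of Acta2 to Pdgfrb was 1.09 in Kcnj16_m1 replicate 4, while the other mutants lay between 0.39 and 0.52. Without that library the difference between the groups was -0.39 (exact two-sided permutation p = 0.0238). Pdlim7 stood at 7.99 FPKM in Kcnj16_m1 replicate 5, above 6.16 to 6.33 FPKM in the other mutants, and Igfbp5 at 249 FPKM in the same library, above 174 to 186 FPKM. Wt1 was low there, at 6.17 FPKM, with 7.97 to 8.67 FPKM in the other mutants. Pdgfb stood at 9.80 FPKM in Kcnj16_m1 replicate 4, below 12.9 to 14.2 FPKM in the others. In SS_WT, replicate 4 stood apart for Itga7 at 4.90 FPKM and Wt1 at 5.81 FPKM, each above the other wild-type libraries.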

How the results depend on the processing

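The number of all genes called stayed within 1.5 times 3988 in the 21 alternatives, from 3013 to 4476. The number of the 10 genes called was 4 as reported, 2 to 4 when leaving out 1 library, 2 with quantile normalization (Gata3 and Mcam) and 1 without the 2 SS_WT libraries of lowest label number (Gata3). Gata3 kept its call in all 21, Mcam in 19, Cnn1 in 11 of 20 and Pdgfrb in 8. With a filter of 1 FPKM Cnn1 could not be tested. Only Pdgfra and Rgs5 changed sign among the members: leaving out 1 library gave -0.066 to 0.032 for Pdgfra and -0.043 to 0.18 for Rgs5, and Rgs5 had -0.028 without the 2 SS_WT libraries, where Myl9 had -0.011. Adjusted over the 2 ratios, the Pdgfra to Pdgfrb difference, -0.46 to -0.33 when leaving out 1 library, did not pass without Kcnj16_m1 replicate 5 (-0.33) or without the 2 SS_WT libraries (-0.29). The Acta2 to Pdgfrb difference ran from -0.39 to -0.15 when leaving out 1 library and passed only without Kcnj16_m1 replicate 4 (exact permutation p = 0.0238). With limma's weighted fit on recovered reads, added after seeing the data, 3882 genes and 3 members were called (Cnn1, Gata3 and Mcam), with 1675 higher and 2207 lower, against 2033 and 1955 as reported. Under TPM scaling 2121 were higher and 1722 lower. Under quantile normalization 2238 were higher and 1842 lower. Of the 30 nearest genes, 25 remained with a pseudocount of 0.1 and 26 with 1. Count-model tests planned on recovered reads were not run, and the weighted fit on recovered reads was added instead. No paired analysis was possible because the labels carry no replicate numbers. Depth limits Cnn1 most, at 17 to 46 reads per library.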
